A study of Mus musculus with 281 samples.

Results

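Intermediate cells (IMCs) of the stria vascularis, the epithelium of the cochlear lateral wall that keeps the endolymph rich in K+, sit between marginal cells (MCs) and basal cells. The genes described here are 10 ligands and receptors of 4 signalling families: *Hgf* and its receptor *Met*, *Kitl* and its receptor *Kit*, the endothelins *Edn1* and *Edn3* with their receptor *Ednrb*, and *Nrp2* with the growth factors *Vegfa* and *Vegfc*. They were taken by name from the gene table, in which all 10 of the 10 listed genes stood among 47752 genes. For each gene the question was which cell type held the ligand, which held the receptor, and how the values differed between *Slc26a4* genotypes.

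IMCs are melanocyte-like cells that descend from the neural crest. The 4 families guide melanocytes and their precursors in the skin and the inner ear. HGF, also called scatter factor, binds the tyrosine kinase MET. KITL, or stem cell factor, binds the tyrosine kinase KIT, on which migration and survival of melanoblasts depend. Endothelin 3 acts through EDNRB, a G protein-coupled receptor, and loss of either gives pigment defects and deafness. NRP2 is a co-receptor for VEGF proteins, among them VEGFC, and for class 3 semaphorins. A ligand or receptor was read here as RNA, and neither protein nor signalling was measured.

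Single cells of the stria vascularis were drawn up with a micropipette from male 129S6 mice and copied into full-length cDNA with Smart-Seq2. There were 92 named and 80 unnamed cells (the names are explained below) from wild-type *Slc26a4*+/+ mice, aged P22 to P42, 40 cells from heterozygous *Slc26a4*+/- mice, aged P26 to P33, and 69 cells from *Slc26a4*-/- mice, aged P24 to P44. *Slc26a4* encodes pendrin, the Cl-/HCO3- exchanger of spindle cells (SCs) and root cells (RCs). How the null allele was built and whether it acts in every cell is not given in the sources used here, and the mouse of a cell is not named. Each genotype therefore counted as 1 sample, no value carries a test, and the SDs and intervals describe cells, not mice. The *Slc26a4* mRNA in SCs and RCs was no check of the labels: its mean in these cells was 944 CPM for *Slc26a4*+/+, 554 CPM for *Slc26a4*+/- and 793 CPM for *Slc26a4*-/-. CPM is the estimated count of a gene per 1000000 counts of the cell.

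Cell types were built from clusters that left out the 10 genes, 53 further genes of their pathways and *Slc26a4*. They gave 84 IMC-like cells (38 *Slc26a4*+/+, 20 *Slc26a4*+/-, 26 *Slc26a4*-/-), 33 SC-like, 37 RC-like and 21 MC-like cells. In *Slc26a4*+/+ IMC-like cells the 10 IMC markers, which include *Kcnj10*, *Dct* and *Tyr*, summed to a median of 47077 CPM, against 383 CPM in SC-like, 885 CPM in RC-like and 445 CPM in MC-like cells. *Tyrp1* had no count in any of these 38 cells. The other cells stayed unnamed. Of them, 89 formed a cluster led by *Slc4a1*, *Fcnb* and *Ctse*, genes of blood cell precursors. Among the IMC, SC, RC and MC marker lists alone, 57 of these 89 cells scored highest for IMCs (41 *Slc26a4*+/+, 3 *Slc26a4*+/-, 13 *Slc26a4*-/-). Marker lists of other cells, such as blood lineages, took no part in that choice. These 57 cells are given apart below. In a further cluster of 17 cells the leading genes were *Crhbp*, *Slc26a7* and *Vmo1*. Estimated counts per cell ranged from 1848 to 7932729, and 20 *Slc26a4*+/+ cells had fewer than 100000. A gene was called detected in a cell at 10 or more counts. Shares of cells carry exact (Clopper-Pearson) 95% binomial intervals, which treat cells as independent draws and do not cover differences between mice. Where no cell had the gene detected, the limit printed is 3 cells over the number of cells, which is somewhat under the upper end of the exact interval.

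*Met*, *Nrp2* and *Ednrb* were the members found together in IMC-like cells, and their RefSeq promoters (GRCm38.p6, 250 bases before to 50 bases after the start site, 5′ to 3′ on the strand of the gene) are shown with E-boxes in capitals. The motifs searched were CACGTG and CATGTG on both strands, the latter read as CACATG on the other strand, which are letters that MITF, the melanocyte transcription factor, is known to bind. The windows are chr6:17463707-17464006 (+ strand) for *Met*, chr1:62703067-62703366 (+ strand) for *Nrp2* and chr14:103843652-103843951 (- strand) for *Ednrb*.
Met: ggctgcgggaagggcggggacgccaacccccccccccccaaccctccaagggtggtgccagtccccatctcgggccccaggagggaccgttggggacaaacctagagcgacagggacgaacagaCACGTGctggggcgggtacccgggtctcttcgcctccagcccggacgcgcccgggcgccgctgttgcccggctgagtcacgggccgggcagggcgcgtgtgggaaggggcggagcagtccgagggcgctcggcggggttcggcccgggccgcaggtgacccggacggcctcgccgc
Nrp2: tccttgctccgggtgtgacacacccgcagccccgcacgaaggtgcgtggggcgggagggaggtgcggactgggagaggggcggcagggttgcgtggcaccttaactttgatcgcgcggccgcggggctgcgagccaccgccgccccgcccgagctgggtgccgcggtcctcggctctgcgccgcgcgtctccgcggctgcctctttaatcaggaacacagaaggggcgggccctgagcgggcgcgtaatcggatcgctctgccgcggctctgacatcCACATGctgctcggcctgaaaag
Ednrb: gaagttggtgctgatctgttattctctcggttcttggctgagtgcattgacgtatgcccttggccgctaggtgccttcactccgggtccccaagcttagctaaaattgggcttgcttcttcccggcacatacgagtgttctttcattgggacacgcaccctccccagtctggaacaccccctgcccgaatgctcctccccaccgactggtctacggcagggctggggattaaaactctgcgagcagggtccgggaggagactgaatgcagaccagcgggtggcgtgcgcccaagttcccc
The *Met* window held CACGTG upstream of its RefSeq start site. The *Nrp2* window held CACATG, starting 27 bases after its own RefSeq start site. The *Ednrb* window held neither. A match describes letters, not a bound site, and its absence says only that these letters are not in that window. Across all 10 genes, 13 promoter windows were listed and 3 held an E-box, the third being the upstream *Hgf* window with CACATG. Of all 32851 promoter windows of that length, 20.4% held at least 1 of these motifs and 7.15% held CACGTG. The GENCODE transcripts *Met-203* and *Met-204* start at 17463800 and 17463827, inside the *Met* window, whereas the most abundant *Nrp2* transcript, described below, starts downstream of its window at 62703702. *Ednrb-202* starts inside the *Ednrb* window, at 103843696. *Ednrb-201*, with 56.7% of *Ednrb* TPM in IMC-like cells, starts upstream of that window at 103844402, where no window was searched.

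Of the 10 genes, 7 reached a mean of 10 CPM in a named *Slc26a4*+/+ cell type, and *Kit*, *Edn1* and *Edn3* did not. The highest mean lay in IMC-like cells for *Met*, *Ednrb* and *Nrp2*, in MC-like cells for *Hgf*, *Vegfa* and *Vegfc*, and in RC-like cells for *Kitl*. Of all 11384 genes tested, 24.4% were highest in IMC-like, 19.8% in MC-like and 29.1% in RC-like cells. All 3 receptor genes that were expressed were thus highest in IMC-like cells and all 4 expressed ligand genes were highest in another cell type, although *Vegfa* changed place under several settings. At 2 times the next cell type or more, IMC-like cells held 3 of the 10 genes, where 8.24% of all genes met that rule. At 4 times or more they still held these 3, against 4.02% of all genes. *Hgf* and *Vegfc* in MC-like cells and *Kitl* in RC-like cells also stood at 2 times the next type, as did 6.35% and 11.9% of all genes for these types, but none reached 4 times. The 10 genes were listed for IMCs with earlier results of these data known. The study had named *Met* and *Ednrb* among deafness genes of IMCs, *Hgf* among those of MCs and *Nrp2* as an IMC marker. These counts therefore describe the list and are no independent support.

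**Figure D1:**
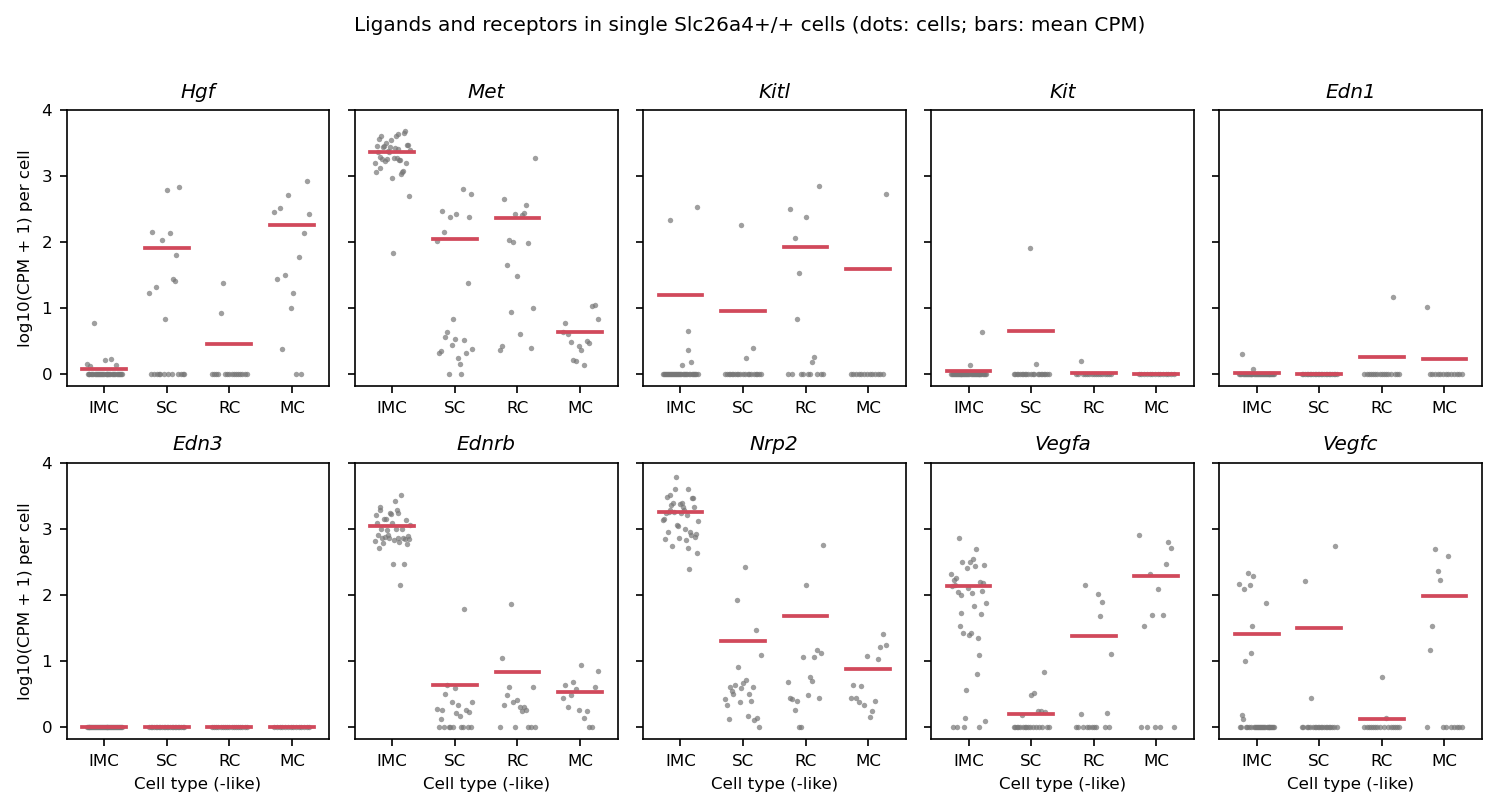
Level of each gene in single *Slc26a4*+/+ cells, as log10(CPM + 1), by cell type (38 IMC-like, 23 SC-like, 17 RC-like and 14 MC-like cells). Grey dots are cells and red bars mark the mean CPM on the same scale. *Met*, *Ednrb* and *Nrp2* lie high in the IMC-like cells, *Hgf* is spread over SC-like and MC-like cells, and *Kit*, *Edn1* and *Edn3* lie at or near 0.

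*Met* (chr6:17463800-17573980, GRCm38) encodes the HGF receptor. In the 38 *Slc26a4*+/+ IMC-like cells its level ran from 67.2 CPM through a median of 2339 CPM to 4815 CPM, with a mean of 2360 ± 1136 CPM (SD). RC-like cells came next, from 1.27 CPM through a median of 95.97 CPM to 1910 CPM (mean 231.2 ± 456 CPM, n = 17). The types overlapped in single cells, since the highest RC-like cell lay above the lowest IMC-like cell. The SC-like mean was 109.2 ± 181.4 CPM (n = 23) and that of MC-like cells, which border the endolymph, was 3.401 ± 3.17 CPM (n = 14). The difference of IMC-like from RC-like cells was 3.35 on the log2(CPM + 1) scale, and 2.33 to 4.90 within the 4 run dates, which are the sequencing batches. The order of RC-like and SC-like cells was within their spread, and without the highest cell the RC-like mean was 126.3 CPM. *Met* was also detected in 10 of 17 RC-like and 7 of 23 SC-like cells. The 10 RC-like cells with *Met* had a median of 1045 CPM for the summed IMC markers, against 406 CPM in the 7 without, and the part of IMC RNA in these values was not tested. In SC-like cells the same medians were 383 CPM with *Met* and 382 CPM without, whereas the Schwann cell list, of which IMC-like cells held a median of 1670 CPM, had 205.9 and 6.80 CPM and the pericyte list had 2861 and 703 CPM.

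*Ednrb* (chr14:103814625-103844402), the endothelin B receptor, showed the widest gap between cell types. IMC-like cells ranged from 140.7 CPM through a median of 896 CPM to 3306 CPM, with a mean of 1114 ± 665 CPM. No cell of the other 3 types exceeded 72.2 CPM, so the groups did not overlap. Means were 5.75 ± 17.3 CPM in RC-like, 3.31 ± 12.3 CPM in SC-like and 2.35 ± 2.25 CPM in MC-like cells, which did not differ beyond their spread. The difference from RC-like cells was 7.37 on the log2 scale (6.21 to 8.87 within run dates). *Ednrb* was detected in all 38 IMC-like cells, in 2 of 17 RC-like, 1 of 23 SC-like and 1 of 14 MC-like cells.

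*Nrp2* (chr1:62703285-62818695), the VEGF and semaphorin co-receptor, ranged in IMC-like cells from 245.4 CPM through a median of 1675 CPM to 6126 CPM (mean 1791 ± 1211 CPM). The highest RC-like cell held 571 CPM and the highest SC-like cell 266.3 CPM, above the lowest IMC-like cell. Means were 45.9 ± 139.4 CPM in RC-like, 18.6 ± 56.7 CPM in SC-like and 6.47 ± 7.46 CPM in MC-like cells. The RC-like mean was 13.03 CPM without its highest cell. The log2 difference of IMC-like from RC-like cells was 5.26, and 5.38 to 9.47 within run dates.

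Per transcript length, IMC-like cells held these receptors in the order *Met* (mean 1372 TPM), *Nrp2* (604 TPM) and *Ednrb* (417 TPM). TPM divides counts by transcript length before scaling to the sum of the cell, so that levels of different genes can be compared. Of the *Met* value, 741.6 TPM was assigned to *Met-204*, a transcript of 884 bases, and 349.6 TPM to *Met-205*, which retains an intron. *Met-203*, *Met-201* and *Met-202*, each with 4137 coding bases, held 227.5, 26.2 and 6.97 TPM. The order therefore holds for TPM summed over all transcripts and was not shown for receptor-coding RNA. All 3 receptors were detected together in 38 of 38 *Slc26a4*+/+ IMC-like cells (100%, interval 90.7 to 100%). The same held for none of 23 SC-like, 17 RC-like or 14 MC-like cells. Among the 41 *Slc26a4*+/+ cells of the unnamed cluster with an IMC score, 34 held all 3. With cell types from marker scores or other clusterings, which take in many of these cells, the share was 72 of 79, 68 of 71, 67 of 70 and 72 of 79 *Slc26a4*+/+ IMC-like cells.

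Within the 38 *Slc26a4*+/+ IMC-like cells, the levels of the 3 receptors were compared pair by pair. Spearman's rho was -0.06 for *Met* and *Ednrb*, 0.20 for *Met* and *Nrp2* and -0.26 for *Ednrb* and *Nrp2*. Within run date 3, which held 24 of the cells, these were -0.11, 0.05 and -0.40. The cells share run dates and differ in depth, and *Ednrb* itself had a rho of -0.33 with total counts, so these values are descriptions.

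*Hgf* (chr5:16553495-16620152), the MET ligand, was a gene of MC-like and SC-like cells. In the 14 *Slc26a4*+/+ MC-like cells it ran from 0 through a median of 44.7 CPM to 844 CPM, with a mean of 180 ± 250 CPM, and 11 of 14 cells held 10 or more counts (78.6%, interval 49.2 to 95.3%). In SC-like cells the median was 0 and the highest cell held 685 CPM (mean 79.5 ± 184.3 CPM), with *Hgf* in 10 of 23 cells (43.5%, interval 23.2 to 65.5%). MC-like and SC-like cells overlapped over the whole range. Their log2 difference was 1.17, with values from -5.27 to 2.86 within run dates, so their order did not hold in each batch. In RC-like cells the mean was 1.801 CPM and 0 of 17 cells had 10 counts, which allows a share of up to 17.6%. In IMC-like cells the sum over all 38 cells was 8 counts and 0 of 38 cells reached 10 counts, which allows a share of up to 7.89%. The 10 SC-like cells with *Hgf* had a median of 5113 CPM for the summed MC markers, against 2686 CPM in the 13 without. The summed pericyte markers differed more, with medians of 5679 and 235.6 CPM, and the Schwann cell markers had 279.01 and 5.01 CPM. The part of RNA from these cells in the SC-like values was not tested.

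Ligand and receptor of the HGF pair thus lay mostly in different cells. Of the *Slc26a4*+/+ cells, 0 of 38 IMC-like, 4 of 23 SC-like and 1 of 14 MC-like cells had 10 or more counts of both *Hgf* and *Met*. In the 11 *Slc26a4*+/+ cells of the unnamed cluster led by *Crhbp*, *Hgf* had a mean of 144.3 ± 273.7 CPM and was detected in 4 cells, 2 of which also held *Met*.

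*Vegfa* (chr17:46016993-46032369), a growth factor for vessels, was shared by MC-like and IMC-like cells. MC-like cells ranged from 0 through a median of 48.8 CPM to 814 CPM (mean 192.8 ± 269.5 CPM, 9 of 14 cells detected). IMC-like cells ranged from 0 through a median of 101.4 CPM to 732 CPM (mean 133.7 ± 156.2 CPM, 30 of 38 cells detected). These types did not differ beyond their spread: the log2 difference was 0.52, and the higher mean lay in IMC-like cells under 4 alternative settings. Per length the levels were 125.2 TPM in MC-like and 125.6 TPM in IMC-like cells. The RC-like mean was 22.3 ± 43.4 CPM (4 of 17 cells), and the SC-like mean was 0.55 CPM with no cell at 10 counts. *Nrp2* was detected in all 38 IMC-like cells, so each of the 30 cells with *Vegfa* held both, and this count says nothing further about pairing. *Kdr*, the main VEGFA receptor of vessels, was detected in 3 of these 38 cells, none of which had *Vegfa* detected. The endothelial markers *Pecam1*, *Cdh5*, *Cldn5*, *Emcn*, *Tie1* and *Vwf* summed to at most 16.3 CPM in any of the 38 cells.

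*Vegfc* (chr8:54077606-54187096), the growth factor of lymphatic vessels, was found in fewer cells. It was detected in 5 of 14 MC-like cells (mean 95.3 ± 166.3 CPM), 8 of 38 IMC-like cells (mean 24.6 ± 56.8 CPM), 1 of 23 SC-like cells and no RC-like cell. The highest cells held 502 CPM in MC-like, 210.8 CPM in IMC-like and 541 CPM in SC-like cells, and the medians were 0 in all of these types. The 541 CPM of the SC-like cell was 1 count in a cell of 1848 counts, and it gave 76.98% of the SC-like mean of 30.6 CPM. Without the SC-like cells under 100000 counts the SC-like mean was 7.70 CPM and the highest cell held 160.1 CPM.

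*Kitl* (chr10:100015630-100100416), the KIT ligand, was detected in 9 *Slc26a4*+/+ cells, 5 of them RC-like. The 5 RC-like cells held 33.5, 115.8, 242.5, 315 and 708 CPM, and the other 12 RC-like cells had fewer than 10 counts. The RC-like mean was 83.6 ± 186.1 CPM and the share 29.4% (interval 10.3 to 55.96%). The other 4 cells were 2 IMC-like cells (212.2 and 336 CPM), 1 MC-like cell (532 CPM) and 1 SC-like cell (183.2 CPM). With so few cells the order of the types was within the spread. *Kitl* was detected in 2 of 38 IMC-like cells, a share of 5.26% (interval 0.644 to 17.7%).

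Its receptor *Kit* was not detected in any of the 84 IMC-like cells of the 3 genotypes. It was detected in 6 cells of the whole set, 5 in the unnamed cluster led by *Slc4a1* and 1 SC-like. With marker lists of other cells included, the 5 cells of the unnamed cluster had their highest scores for neutrophil, red cell, fibrocyte or endothelial lists. The sum of *Kit* over the 38 *Slc26a4*+/+ IMC-like cells was 2 counts, and 0 of 38 reaching 10 counts allows a share of up to 7.89%. The SC-like cell with *Kit* was also the SC-like cell with *Kitl*, and no other *Slc26a4*+/+ cell of a named type held both. *Edn1* reached 10 counts in 1 cell, an MC-like cell with 11 counts, and *Edn3* had 2 counts in the whole set. No cell of any named type held both *Ednrb* and *Edn1* at 10 or more counts. Basal cells, fibrocytes and vessel cells were not among these types, and their endothelins were not analysed here.

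**Figure D2:**
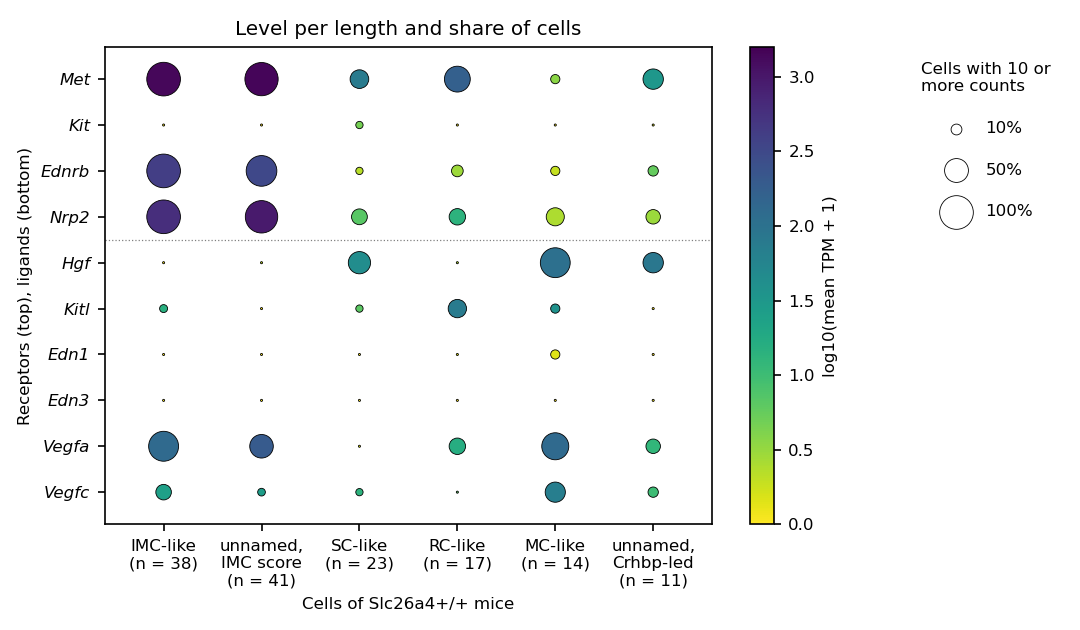
Level per length and share of cells for receptors (upper rows) and ligands (lower rows) in groups of *Slc26a4*+/+ cells. Colour is log10(mean TPM + 1), and dot size is the share of cells with 10 or more counts. *Met*, *Ednrb* and *Nrp2* have large dark dots in IMC-like cells (38 of 38 cells each) and in the 41 unnamed cells with an IMC score, and *Hgf* has its largest dot in MC-like cells (11 of 14 cells).

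The genes whose levels ran most like those of the receptors over all cells were IMC genes. By Spearman's rho over 13125 genes, *Met* was closest to *Kcnj10* (0.83), the K+ channel of IMCs, to *Tyr* (0.80), the melanin enzyme tyrosinase, and to *Nrp2* (0.80). *Nrp2* was close to *Tyr* (0.83) and *Met* (0.80). *Ednrb* was closest to *Dct* (0.79), *Hpse* (0.78) and *Gpnmb* (0.77). For the ligands the values were lower: *Hgf* was closest to *Enpep* (0.46), *Vegfc* to *Sparcl1* (0.27) and *Kitl* to *Nampt* (0.35). These values mix cell types, run dates and depth and are descriptions.

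Transcript use was read from the TPM of each transcript in *Slc26a4*+/+ cells of the type with the highest level. In IMC-like cells 54.1% of *Met* TPM was assigned to *Met-204*, a transcript of 884 bases and 3 exons at the 5′ end of the gene with 507 coding bases. *Met-205*, which retains an intron, took 25.5%, and *Met-203*, with 6809 bases and 4137 coding bases, took 16.6% of TPM but 45.95% of the *Met* counts. The *Nrp2* transcript that starts at 62703702, with 4216 bases and 2718 coding bases, took 68.3% of *Nrp2* TPM. *Ednrb-201* and *Ednrb-202*, which have the same coding length of 1326 bases and different start sites, took 56.7% and 43.3%. *Vegfa-207* took 58.1% of *Vegfa* TPM in IMC-like cells and 83.3% in MC-like cells. *Hgf-201*, with 2184 coding bases, took 53.2% of *Hgf* TPM in MC-like cells. In RC-like cells *Kitl-201*, whose coding sequence is 84 bases shorter than the 819 bases of *Kitl-202*, took 89.5%. Transcripts of 1 gene share most of their reads, so these shares are estimates of the authors' program.

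Genotypes were compared within run dates, since *Slc26a4*-/- IMC-like cells came from run dates 2 and 4 and *Slc26a4*+/- cells from run date 4. Ratios are differences of log2(mean CPM + 1) within a run date, averaged over run dates, for genes with a mean of at least 10 CPM. That left 6 of the 10 genes in IMC-like cells. The comparison of *Slc26a4*-/- with *Slc26a4*+/+ cells had 26 and 12 cells. Of the 6 genes, 1 (*Kitl*) was past a 2-fold difference, whereas 45.7% of all 8522 genes tested were (30.5% higher and 15.3% lower), so no member stood apart by this measure. *Met*, *Ednrb*, *Nrp2* and *Vegfa* were higher in *Slc26a4*-/- cells in both run dates by less than 2-fold, and 27.9% of all genes were higher in both. *Met* came to -0.02 without 1 *Slc26a4*+/+ cell, and *Vegfa* was under 0 in 2 of 12 alternatives (lowest -0.18). The median ratio of all genes was 0.20.

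*Met* in run date 2 ran from 1783 through a median of 4404 to 4815 CPM in 5 *Slc26a4*+/+ cells and from 2378 through 3728 to 5602 CPM in 15 *Slc26a4*-/- cells. In run date 4 it ran from 493 through 1753 to 2652 CPM in 7 *Slc26a4*+/+ cells, from 627 through 1736 to 4644 CPM in 20 *Slc26a4*+/- cells and from 1250 through 1875 to 3380 CPM in 11 *Slc26a4*-/- cells. The genotypes overlapped in both run dates. The log2 ratio of *Slc26a4*-/- over *Slc26a4*+/+ was 0.06 (0.05 and 0.07 by run date).

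*Ednrb* overlapped as well. Run date 2 gave 295.1 through 711 to 1156 CPM in *Slc26a4*+/+ and 40.1 through 834 to 1608 CPM in *Slc26a4*-/- cells. Run date 4 gave 140.7 through 738 to 2605 CPM in *Slc26a4*+/+, 6.36 through 1257 to 3777 CPM in *Slc26a4*+/- and 800 through 1850 to 2536 CPM in *Slc26a4*-/- cells. The log2 ratio was 0.51 (0.41 and 0.60).

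*Nrp2* had the largest ratio of the receptors. Run date 2 gave 1308 through 2911 to 3991 CPM in *Slc26a4*+/+ and 914 through 3728 to 9428 CPM in *Slc26a4*-/- cells. Run date 4 gave 424 through 812 to 2150 CPM in *Slc26a4*+/+, 2.71 through 956 to 2272 CPM in *Slc26a4*+/- and 1295 through 2301 to 3071 CPM in *Slc26a4*-/- cells. The log2 ratio was 0.82 (0.66 and 0.97) and lay at percentile 66.02 of all genes. It ran from 0.66 to 0.97 over the alternative settings and from 0.73 to 0.94 with each cell left out in turn. Means of the collection sessions, which are groups of cells of 1 day and age, overlapped between genotypes: 1626 to 3991 CPM in 3 *Slc26a4*+/+ sessions and 2539 to 7009 CPM in 5 *Slc26a4*-/- sessions of run date 2, and 640 to 1628 CPM and 1478 to 2400 CPM in 3 sessions each of run date 4. The summed IMC markers were also higher in *Slc26a4*-/- cells, with medians of 65349 against 48111 CPM in run date 2 and 92530 against 51862 CPM in run date 4, and the part of this in the ratios was not tested.

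*Vegfa* in IMC-like cells gave a log2 ratio of 0.46 (0.49 and 0.42), with means of 208.9 and 293.97 CPM in run date 2 and of 31.9 and 42.99 CPM in run date 4. The gap between run dates was therefore wider than that between genotypes. *Vegfc* gave ratios of 5.62 and -4.05 in the 2 run dates, with 4 of 15 *Slc26a4*-/- cells detected in run date 2 and a single *Slc26a4*+/+ cell of 189.3 CPM in run date 4.

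In *Slc26a4*+/- IMC-like cells (20 against 7 cells, run date 4), the ratios were 0.16 for *Met*, 0.28 for *Ednrb*, -0.03 for *Nrp2*, 0.31 for *Vegfa* and -0.13 for *Vegfc*. Without a *Slc26a4*+/+ cell of 189.3 CPM the *Vegfc* value was 4.68. With 1 cell left out, *Met* also reached -0.0050 and *Nrp2* 0.21, so their directions did not hold, and *Vegfa* reached 1.08. *Kitl* was the 1 gene of 6 past 2-fold (-3.14), against 38.7% of all 8354 genes (18.6% lower). That value came from 1 *Slc26a4*+/+ cell of 336 CPM, and without it the ratio was 2.10. All 3 receptors were detected in 19 of 20 *Slc26a4*+/- and in 26 of 26 *Slc26a4*-/- IMC-like cells. The exception was a *Slc26a4*+/- cell with 7 counts of *Nrp2* beside 12017 counts of *Met*.

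**Figure D3:**
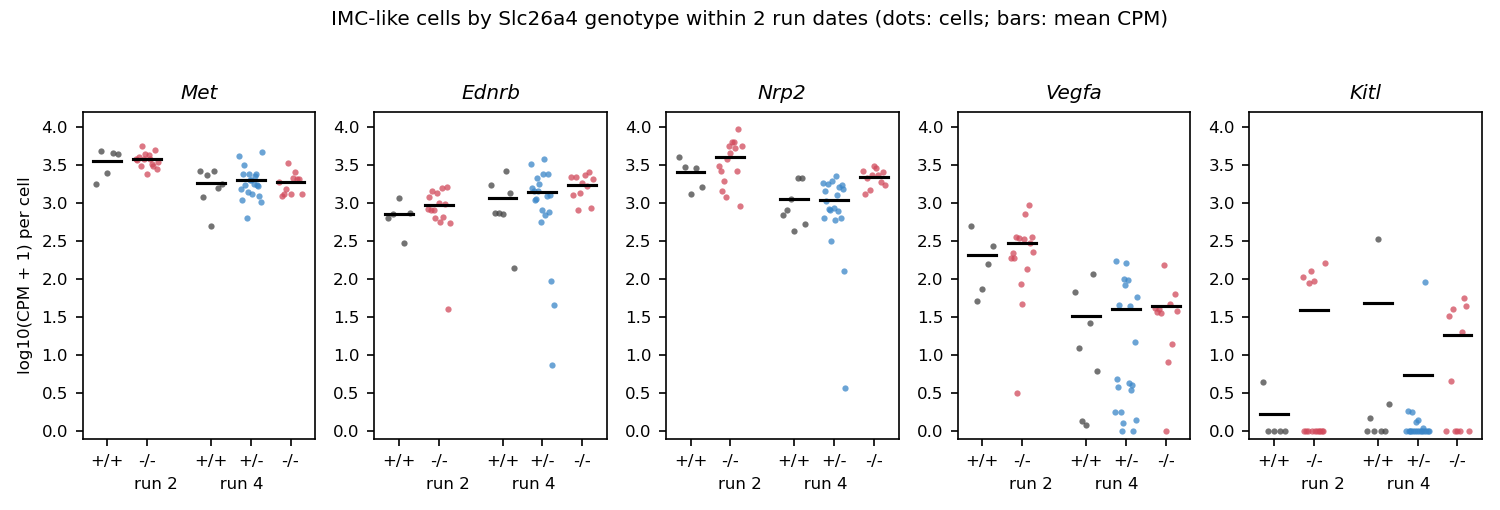
Level of 5 genes in IMC-like cells by *Slc26a4* genotype within run dates 2 and 4, as log10(CPM + 1). Dots are cells and black bars mark the mean CPM on the same scale. The genotypes overlap for *Met*, *Ednrb*, *Nrp2* and *Vegfa*, and *Kitl* separates into cells near 0 and a group of cells with counts, 5 of 15 and 6 of 11 *Slc26a4*-/- cells with 10 or more in run dates 2 and 4.

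*Kitl* was found in different cells in the genotypes. In IMC-like cells it was detected in 2 of 38 *Slc26a4*+/+ cells (5.26%), 1 of 20 *Slc26a4*+/- cells (5%, interval 0.127 to 24.9%) and 11 of 26 *Slc26a4*-/- cells (42.3%, interval 23.4 to 63.1%). Within run date 2 the counts were 0 of 5 and 5 of 15 cells, and within run date 4 they were 1 of 7, 1 of 20 and 6 of 11 cells. The 11 *Slc26a4*-/- cells came from 4 ages between P24 and P44 in run date 2 and 3 ages between P29 and P34 in run date 4. Their levels were moderate, from 87.6 to 161.1 CPM in run date 2 and from 3.601 to 56.2 CPM in run date 4, below the 212.2 and 336 CPM of the 2 *Slc26a4*+/+ cells. The ratio of means accordingly went in opposite directions, at 4.54 in run date 2 and -1.41 in run date 4.

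The share difference, averaged over both run dates, was 36.8 percentage points (33.3 and 40.3). Of all 8522 genes, 9.05% had a difference at least as large, and the median gene had 12.03 points. After each cell was thinned to 100000 counts, at least 1 *Kitl* count was left in 2 of 38 *Slc26a4*+/+, 2 of 20 *Slc26a4*+/- and 10 of 26 *Slc26a4*-/- cells. With the marker-score cell types the shares were 2 of 79, 1 of 23 and 14 of 39 cells. Among the IMC, SC, RC and MC lists alone, all 14 *Slc26a4*-/- cells with *Kitl*, including 3 of the unnamed cluster, scored highest for IMCs. The summed IMC markers had medians of 78666 CPM in the 11 cells with *Kitl* and 67524 CPM in the 15 without, and the summed RC markers had medians of 94.5 and 31.04 CPM, under the 11904 CPM of *Slc26a4*+/+ RC-like cells. The part of RC RNA in the *Kitl* counts was not tested.

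In RC-like cells the counts ran the other way. *Kitl* was detected in 5 of 17 *Slc26a4*+/+, 1 of 6 *Slc26a4*+/- and 0 of 14 *Slc26a4*-/- cells, which allows a share of up to 21.4%. The 14 *Slc26a4*-/- cells held no *Kitl* count among 24140723 counts. Pooled over *Slc26a4*+/+ RC-like cells, *Kitl* was 1251 times a floor of 3 counts over the *Slc26a4*-/- group. Of its *Slc26a4*+/+ counts, 70.1% came from 1 cell of run date 1, in which there was no *Slc26a4*-/- RC-like cell. Within run date 4 the shares were 4 of 6 and 0 of 7 cells and the pooled level was 814 times the floor. The median *Slc26a4*+/+ RC-like cell had 0 CPM, so these multiples rest on the 5 cells with *Kitl* and are no bound on a difference between genotypes. No share over all genes is given for this contrast. The intervals of the shares over all run dates overlapped.

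**Figure D4:**
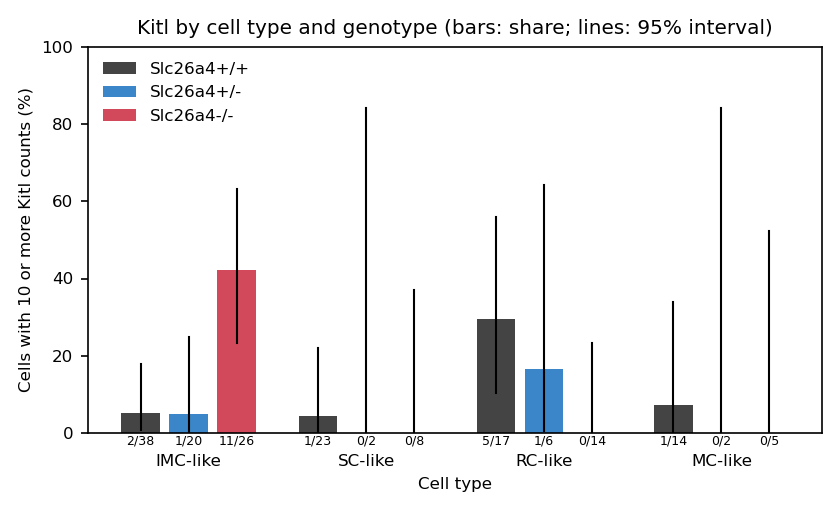
Share of cells with 10 or more *Kitl* counts by cell type and genotype. Bars are shares in percent, lines are exact 95% binomial intervals, and the number of cells with *Kitl* over the number of cells stands under each bar. The share is 42.3% in *Slc26a4*-/- IMC-like cells against 5.26% in *Slc26a4*+/+ cells, and 0 of 14 in *Slc26a4*-/- RC-like cells against 5 of 17.

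SC-like and RC-like cells were also compared together as pendrin cells (22 *Slc26a4*-/- and 12 *Slc26a4*+/+ cells of run dates 2 and 4). Here 2 of 6 genes, *Hgf* (-3.14) and *Kitl* (-3.33), were past 2-fold, both lower in *Slc26a4*-/- cells, against 61.6% of all 9349 genes past 2-fold in either direction and 16.5% lower. In both run dates *Hgf* alone of the 6 was lower by over 2-fold, as were 5.8% of all genes. The *Hgf* value rested on a *Slc26a4*+/+ cell of 685 CPM, 1 of 3 in run date 2, without which the ratio was 0.78. The cells also differed in type, as all 7 *Slc26a4*-/- cells of run date 4 were RC-like, in which *Hgf* was near 0. Within SC-like cells *Hgf* was detected in 10 of 23 *Slc26a4*+/+, 0 of 2 *Slc26a4*+/- and 3 of 8 *Slc26a4*-/- cells. The *Kitl* value had no *Slc26a4*-/- count behind it and depends on the pseudocount of 1 CPM. The other ratios were -0.64 for *Met*, 0.48 for *Ednrb*, -0.34 for *Nrp2* and 0.14 for *Vegfa*. None of these directions held with each cell left out in turn: 1 cell took *Met* to 1.0204, *Ednrb* to -0.36, *Nrp2* to 0.91 and *Vegfa* to -0.48.

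In MC-like cells *Hgf* was detected in 11 of 14 *Slc26a4*+/+, 2 of 2 *Slc26a4*+/- and 5 of 5 *Slc26a4*-/- cells. The levels were 0 through 44.7 to 844 CPM in *Slc26a4*+/+, 147.7 and 158.4 CPM in *Slc26a4*+/- and 143.02 through 381 to 655 CPM in *Slc26a4*-/- cells, which lay within the range of the *Slc26a4*+/+ cells. Means were 180 ± 250, 153.02 ± 7.57 and 401 ± 186.97 CPM. No run date held 3 cells of both genotypes, so no ratio was taken.

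The wider pathways were read from 63 listed genes, the 10 members included, of which 42 reached 10 CPM in a named *Slc26a4*+/+ cell type. Among the HGF and MET genes, the proteases *St14* and *Hpn*, which activate HGF, had their highest means in SC-like cells (730 and 133.3 CPM) and 0.75 and 6.63 CPM in IMC-like cells. *St14* also had 505 CPM in MC-like and 124.4 CPM in RC-like cells, and *Hpn* had 9.18 and 103.4 CPM there. Their inhibitor *Spint1* had 606 CPM in SC-like, 476 CPM in MC-like, 366 CPM in RC-like and 3.402 CPM in IMC-like cells. *Kdr* averaged 69.9 CPM over SC-like cells (5 of 23 detected) and 335 CPM in the unnamed cluster led by *Crhbp*. The semaphorins *Sema3d* (97.6 CPM) and *Sema3e* (16.7 CPM) were more than 4 times higher in SC-like than in any other named type, as 3.49% of all genes were. *Flt1* (14.7 CPM), a VEGF receptor, and the semaphorin receptor *Plxna2* (155.7 CPM) were past 4 times the next type in RC-like cells, as 5.6% of all genes were, but *Flt1* was detected in 1 of 17 of these cells and *Plxna2* in 7.

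Of 12 genes that ERK signalling is known to induce, 8 were expressed and 5 were highest in IMC-like cells, where 24.4% of all genes were. At 4 times the next type there were 3, against 4.02% of all genes. These 3 were the ERK phosphatases *Dusp4* (245.4 CPM, next 6.08 CPM in RC-like cells) and *Dusp6* (222.2 CPM, next 40.5 CPM in MC-like cells) and the transcription factor *Etv5* (44.7 CPM, next 10.1 CPM). *Dusp4* was detected in 34 of 38 IMC-like cells and *Dusp6* in 26. *Spry2* (85.9 CPM in RC-like cells), *Fos* (30.2 CPM in SC-like cells) and *Egr1* (127.1 CPM in SC-like cells) were highest elsewhere. *Egr1* had 0.23 CPM in IMC-like cells, detected in 0 of 38, and was detected in 3 of 23 SC-like cells. Among the melanocyte transcription factors, *Mitf* (834 CPM, 38 of 38 cells) and *Zeb2* (99.8 CPM) were at least 4 times higher in IMC-like cells than in the next type, whereas *Sox10* was found in all 4 types (458 CPM in IMC-like cells, 173.9 CPM in MC-like cells).

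Between genotypes, 29 of the 63 genes could be compared in IMC-like cells. Higher in *Slc26a4*-/- cells by over 2-fold in both run dates were 7 of them, and 1 was lower, against 10.1% and 6.21% of all genes. *Ece1*, which cleaves endothelin precursors, had 28.1 against 0.37 CPM in run date 2 and 31.3 against 0.55 CPM in run date 4. *Nrp1*, the neuropilin paralogue of *Nrp2*, had 48.7 against 0.45 CPM and 26.1 against 3.75 CPM, and *Etv5* had 137.8 against 22.6 CPM and 124.01 against 58.6 CPM. *Adam17*, the protease that sheds KITL, had 9.93 against 0.44 CPM and 29.2 against 7.85 CPM. In run date 4 *Slc26a4*+/- cells were also above *Slc26a4*+/+ cells for *Adam17* (log2 ratio 3.44, against 1.77 for *Slc26a4*-/- cells) and *Plxnd1* (4.49 against 2.69). The same held for *Tfap2a* (1.79 against 1.10) and *Etv5* (0.97 against 1.07). *Ece1* (1.27 against 4.38), *Nrp1* (1.51 against 2.51) and *Fos* (0.05 against 8.14) were under the filter of 10 CPM in the *Slc26a4*+/- comparison. *Plxnd1*, *Fos* and *Tfap2a* were the other 3 of the 7, and *Spint2* was the lower gene, with 81.6 against 366 CPM and 100.7 against 402 CPM. In *Slc26a4*+/+ cells (5 and 7 cells) *Plxnd1* and *Fos* had 0 CPM in both run dates, and *Tfap2a* had 1.82 and 4.61 CPM. With *Ece1*, *Nrp1* and *Adam17* they passed the filter of 10 CPM only through their *Slc26a4*-/- values. Their ratios depend on the pseudocount of 1 CPM, so the count of 7 is no support for a change in these pathways.

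**Figure D5:**
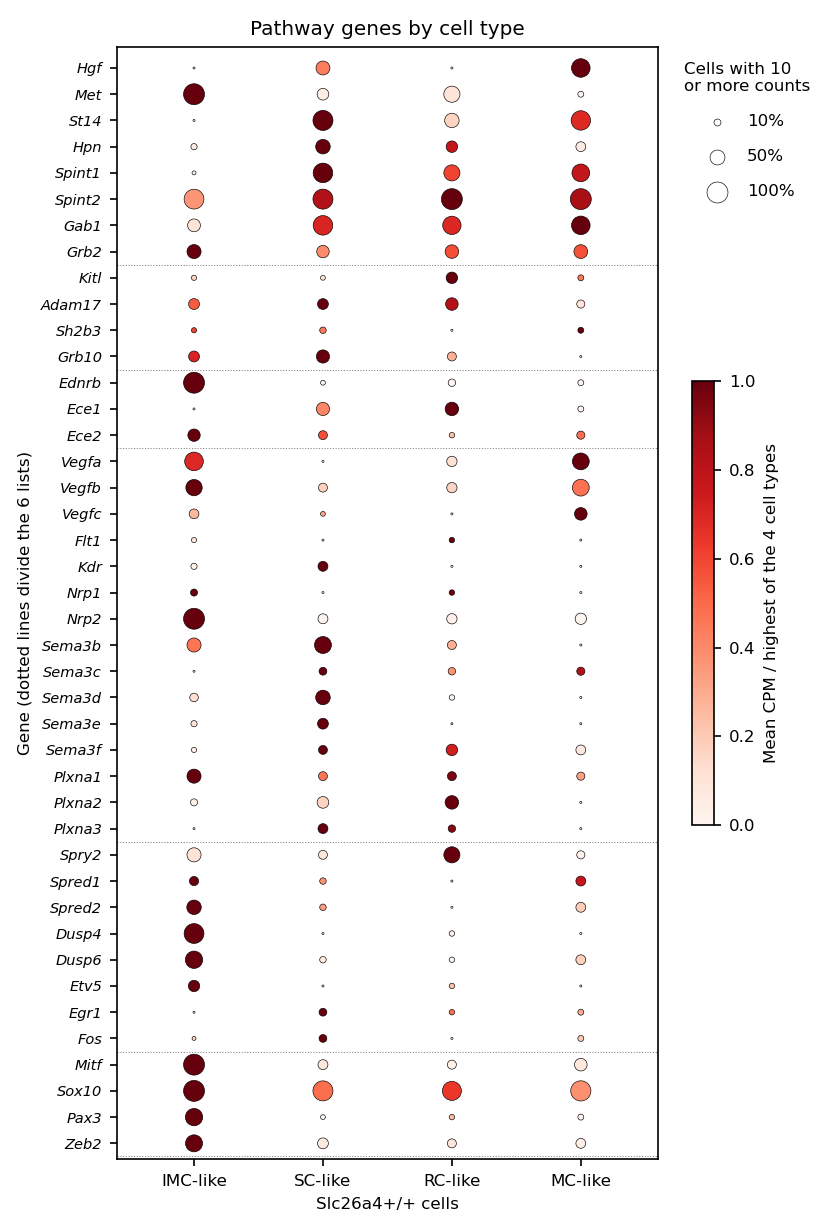
Pathway genes that reached 10 CPM in a named type, in *Slc26a4*+/+ cells. Colour is the mean CPM of a type divided by the highest of the 4 types, dot size is the share of cells with 10 or more counts, and dotted lines divide the 6 lists. *Met*, *Ednrb*, *Nrp2*, *Dusp4*, *Dusp6* and *Mitf* are darkest and largest in IMC-like cells.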

How the data were processed

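The cochlear stria vascularis was sampled cell by cell, and each library was sequenced in 1 of 4 run dates. According to the study's methods, the authors aligned reads to mouse transcripts (mm10, the GRCm38 build) with kallisto (version not given in the sources used here) and deposited an estimated count for each gene and sample. The gene table held whole numbers, which equal the floored sums of the transcript values for 99.5% of genes in the median cell. The authors also deposited estimated counts and TPM for each transcript, the TPM as kallisto wrote it. The 17 columns of no sample were not used. TPM of transcripts was summed by gene, and CPM was taken from the estimated counts. Cells were clustered with Seurat 5.3.0 in R 4.3.3 without 64 genes (the members, their pathway genes and *Slc26a4*), and clusters were named from marker genes. All cells were kept, and no doublet caller was run on these micropipette-picked cells.

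Groups were the genotypes in the sample labels. The depth of a cell lay between 1848 and 7932729 estimated counts, with a median of 1312950. The precision of each share was given as an exact 95% interval, which treats cells as independent draws and does not cover differences between mice. Without molecular identifiers, PCR copies could not be told apart. Ratios used a pseudocount of 1 CPM and run dates with at least 3 cells of both genotypes, for genes with a mean of at least 10 CPM. Cells are not replicates and the mice are not named, so nothing was tested. The ratio code was run on simulated counts with fold changes set to 1, 4 and 16. These counts were drawn around 1 mean for each gene, without sessions or mice. Of 8377 genes set to no change in IMC-like cells, 521 were past 2-fold, whereas 45.7% of the real genes were. The simulation therefore checks the code and does not describe the spread of these data. The members and lists were chosen with earlier results of these data known. Pathway genes were named where they were past 4 times the next type or past 2-fold in both run dates. *St14*, *Hpn*, *Spint1*, *Egr1* and *Sox10* do not meet this rule and were named after their values were seen. Alternatives changed the clustering, marker scores, cell filter, unit, pseudocount and averaging, and left out cells. Gene positions came from GENCODE (GRCm38) and promoters from RefSeq (GRCm38.p6). Python 3.11.15, pandas 2.3.3 and matplotlib 3.10.9 were used. Some of the most alike genes are not reported here.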

Additional observations from a re-analysis of the deposited data

Results flagged for a closer look

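In the 41 *Slc26a4*+/+ cells that lay in the unnamed cluster led by *Slc4a1* and scored highest for IMC markers, which entered no comparison, mean levels were 2671 CPM for *Met*, 895 CPM for *Ednrb*, 3034 CPM for *Nrp2* and 306 CPM for *Vegfa*. For *Vegfa* the median was 34.9 CPM, below the 101.4 CPM of the 38 named IMC-like cells, and the mean was 202.6 CPM without 1 cell of 4425 CPM. In the 11 *Slc26a4*+/+ cells of the unnamed cluster led by *Crhbp*, means were 144.3 CPM for *Hgf*, 61.9 CPM for *Met*, 13.1 CPM for *Ednrb* and 12.7 CPM for *Vegfa*.

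The ratio of *Slc26a4*-/- over *Slc26a4*+/+ cells went in opposite directions in run dates 2 and 4 for 4 values. In IMC-like cells these were *Kitl* (4.54 and -1.41 on the log2 scale) and *Vegfc* (5.62 and -4.05). In pendrin cells they were *Ednrb* (2.47 and -1.51) and *Nrp2* (1.30 and -1.97). All rest on few cells with counts, and the difference between run dates was not tested.

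The share of cells with 10 or more *Kitl* counts differed by genotype in opposite directions in 2 cell types. It was 5.26% in *Slc26a4*+/+ and 42.3% in *Slc26a4*-/- IMC-like cells, and 29.4% in *Slc26a4*+/+ and 0% in *Slc26a4*-/- RC-like cells. With each genotype 1 sample, this difference between cell types was not tested.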

How the results depend on the processing

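The lead of IMC-like cells over the next cell type for *Met*, *Ednrb* and *Nrp2* held under every alternative run, with log2 differences of 2.93 to 5.35, 3.90 to 8.43 and 3.67 to 7.79. *Vegfa* reversed: the MC-like minus IMC-like difference was -1.17 with marker scores, -0.32 with clusters from 4 PCs, -0.71 with means of log2 values and -0.0045 with TPM, and the cause was not tested. The count of members past 2-fold in *Slc26a4*-/- IMC-like cells, 1 of 6, was 2 with TPM, 0 with a pseudocount of 10 CPM, 0 with run dates pooled, 2 in run date 2 alone and 2 in run date 4 alone. In *Slc26a4*+/- cells, 1 of 6, it was 0 with means of log2 values and 2 pooled. In pendrin cells, 2 of 6, it was 4 in run date 4 alone. In IMC-like cells the *Kitl* ratio was -1.41 in run date 4 alone. With each cell left out in turn, an alternative added after seeing the data, the counts were 1 to 2, 1 to 2 and 1 to 4, the *Slc26a4*+/- *Kitl* ratio ran from -5.44 to 2.10 and the pendrin *Hgf* ratio from -3.54 to 0.78. No paired analysis was possible because no result comes from a test and the replicate numbers only name cells. After thinning to 100000 counts *Hgf* was left in 11 of 14 MC-like cells, and *Kitl* in 2 of 38 and *Vegfc* in 8 of 38 IMC-like cells, as at full depth. The authors' cell names were not used here, and rebuilt clusters gave 38 *Slc26a4*+/+ IMC-like cells where other settings gave 70 to 79.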
